A study of Mus musculus with 102 samples.

Results

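Mediator regions are the chromatin regions of mouse embryonic stem (ES) cells at which MED1, MED12 or SUR2 was listed in the authors' deposited region table. They number 36085 of the 67697 regions in the table, and were chosen by listing alone: a subunit is listed at a region where its deposited log2 enrichment reaches a fold of 1.5. MED1 was listed at 22038 regions, MED12 at 16260 and SUR2 at 21241. Each region carries H3K4me1, H3K4me3 or both marks. The 41819 regions with H3K4me1 and without H3K4me3 are called H3K4me1-only here, the 18425 with both are called both-mark, and the 7453 with H3K4me3 and without H3K4me1 are called H3K4me3-only.

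The study profiled chromatin proteins by chromatin immunoprecipitation with sequencing (ChIP-seq), in which DNA bound by a protein is pulled down with an antibody and sequenced, with the question of which of them are found together with H3K4me1 and need it. The region table comes from 129/Ola ES cells, for which the labels name no mutation or treatment. All were grown on feeder cells and then passaged without feeders before crosslinking. Each subunit has 2 libraries, made with a Santa Cruz antibody for MED1, a Bethyl antibody for MED12 and a BD Pharmingen antibody for SUR2. For the H3K4 methylation results, R1 ES cells of the 129SV strain, either wild type or with both MLL3 and MLL4 catalytically dead, were used as well. The labels do not say how many clones the catalytic-dead line stands for. The tables hold no expression values, so the ES cell label could not be checked against marker genes.

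Mediator is a large complex that carries signals from transcription factors at enhancers and promoters to RNA polymerase II. MED1 belongs to its core, where it contacts nuclear receptors and other activators. MED12 belongs to a kinase module that binds the core reversibly, and SUR2, also called MED23, belongs to the tail that contacts activators such as ELK1. In ES cells Mediator is known to occupy enhancers and promoters together with cohesin, the ring complex of which SMC3 is a subunit. H3K4me1 is typical of enhancers, H3K4me3 of promoters, and H3K27ac of active elements of either kind.

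The table holds 1 value per subunit and region, with no counts and no replicates. The depth is therefore unknown, no test between combinations was possible, and the intervals given are 95% Wilson intervals for shares, or order-statistic intervals for medians. These intervals cover counting error over regions only. A subunit that is not listed was below the limit or was not measured there. Antibody quality, depth and occupancy cannot be told apart when one subunit is listed more often than another. The sources do not say which of the 2 libraries a value comes from.

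Mediator was listed more often where H3K4me3 was present. Over all regions, 32.6% had MED1, 24.0% had MED12, 31.4% had SUR2 and 53.3% had at least 1 of them. At least 1 subunit was listed at 37.7% of H3K4me1-only regions, 81.7% of both-mark regions and 70.5% of H3K4me3-only regions. MED1 was listed at 18.5% of H3K4me1-only, 56.5% of both-mark and 52.4% of H3K4me3-only regions. MED12 followed the same order at 15.5%, 38.5% and 35.9%. SUR2 was listed at 17.7% of H3K4me1-only and 59.6% of both-mark regions but at only 38.7% of H3K4me3-only regions. SUR2 therefore set both-mark and H3K4me3-only regions apart most: its share was higher in both-mark regions on all 19 autosomes, by 8.71 to 41.8 percentage points, the highest being that of chromosome 11. For MED1 this difference had the same sign on 16 autosomes and a median of 2.93 points, and for MED12 on 14 autosomes and a median of 0.80 points.

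The 7 possible combinations of the subunits were unequal in number. MED1 alone was listed at 7056 regions, SUR2 alone at 6655 and MED12 alone at 4737. The pair of MED1 and SUR2 was listed at 6114 regions, against 3051 for MED1 with MED12 and 2655 for MED12 with SUR2. All 3 subunits were listed at 5817 regions, 8.59% of the table, and none at 31612. SUR2 was listed at 54.1% of regions with MED1 and at 20.4% of regions without it. MED12 was listed at 40.2% of regions with MED1 and at 16.2% of those without. At H3K4me1-only regions, of which 17.7% had SUR2, it was listed at 33.0% of regions with MED1 and 14.2% of those without. At both-mark regions, of which 59.6% had SUR2, these shares were 70.1% and 45.8%. The higher share with MED1 at both-mark regions thus went with a higher share of SUR2 in that class as a whole.

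The H3K4 class changed steadily with the number of subunits. Regions with no subunit were H3K4me1-only in 82.4% of cases, 1-subunit regions in 58.7%, 2-subunit regions in 34.5% and regions with all 3 subunits in 15.0% (95% interval 14.1% to 15.9%). Regions with all 3 subunits were both-mark in 64.9% of cases and H3K4me3-only in 20.1%. Over the whole table these shares were 61.8% H3K4me1-only, 27.2% both-mark and 11% H3K4me3-only. Among single subunits, MED12 alone lay most often at H3K4me1-only regions, 67.9% against 55.3% for MED1 alone and 55.7% for SUR2 alone. MED1 alone and SUR2 alone thus had nearly the same H3K4me1-only share, with intervals of 54.1% to 56.5% and 54.5% to 56.9%. They differed at H3K4me3-only regions, which made up 16.4% of MED1-alone regions and 7.57% of SUR2-alone regions, and this difference had the same sign on all 19 autosomes.

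H3K27ac, which the rule did not use, was listed at 62.6% of all regions and at 78.3% of Mediator regions. It was listed at 44.7% of regions with no subunit, 60.8% with MED12 alone, 70.5% with MED1 alone and 74.6% with SUR2 alone. The share was 78.1% with MED1 and MED12, 81.2% with MED12 and SUR2, 89.4% with MED1 and SUR2 and 93.3% with all 3 subunits. MED12 thus marked the least acetylated group among the single subunits, and the pair that lacks MED12 was the most acetylated pair. Part of this order goes with the H3K4 class. Within H3K4me1-only regions, where 46.4% had H3K27ac, the share went from 37.1% with no subunit to 79.6% with all 3, with MED12 alone at 50.0%, MED1 alone at 56.4% and SUR2 alone at 65.1%. Within both-mark regions, of which 88.3% had H3K27ac, it went from 79.2% with no subunit to 95.5% with all 3, and within H3K4me3-only regions, of which 89.9% had it, from 81.7% to 96.5%. The difference between all 3 subunits and none over all regions was above 0 on all 19 autosomes, at 40.8 to 55.9 points.

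SMC3 also followed the number of subunits. SMC3 was listed at 36.9% of all regions, 21.6% of regions with no subunit, 40.1% with 1 subunit, 55.5% with 2 and 72.5% with all 3 (71.4% to 73.6%). With MED12 alone, MED1 alone and SUR2 alone the shares were 38.1%, 39.4% and 42.3%. They lay close together, and the 3 pairs lay between 53.3% and 57.2%. Within H3K4me1-only regions, of which 24.9% had SMC3, it went from 18.4% with no subunit to 47.5% with all 3. Within both-mark regions, of which 57.2% had it, the share went from 37.6% to 75.9%, and within H3K4me3-only regions, of which 54.3% had it, from 34.6% to 80.1%. Chromosome 11 gave the smallest difference between all 3 subunits and none, 44.5 points, against a median of 53.0 points over the 19 autosomes.

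**Figure D1:**
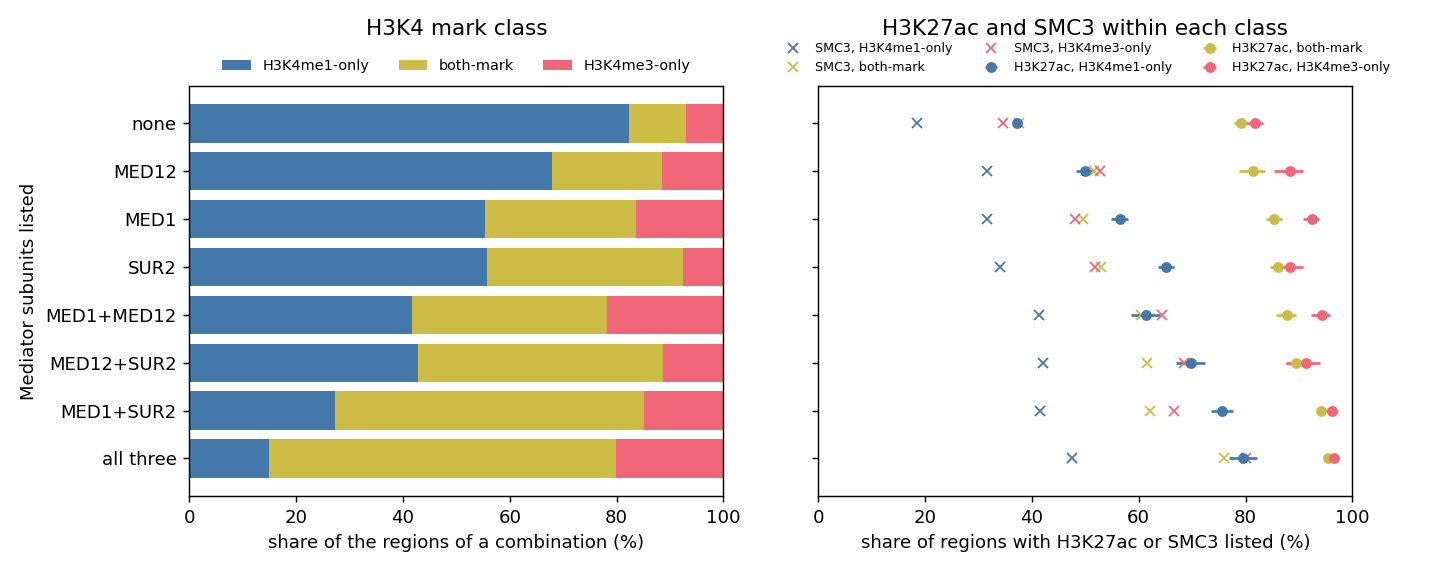
The left panel gives, for each combination of Mediator subunits (rows), the share in percent of its regions in each H3K4 class. The right panel gives the share of regions with H3K27ac (circles, with 95% Wilson intervals) and with SMC3 (crosses) listed in each class; the H3K4me1-only share goes from 82.4% with no subunit to 15.0% with all 3, and within H3K4me1-only regions the H3K27ac share goes from 37.1% to 79.6%.

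Mediator regions were narrower than regions with no subunit within each H3K4 class. The median width with any subunit and with none was 396 and 678 bp in H3K4me1-only, 1071 and 1170.5 bp in both-mark, and 1459 and 1636 bp in H3K4me3-only regions. Over all regions the median width was 1150 bp with all 3 subunits and 794.5 bp with none. Within H3K4me1-only regions the order was reversed, with a median of 335 bp for all 3 subunits, and it was reversed in this way on all 19 autosomes. On chromosome X, which holds 643 regions of all classes, the H3K4me1-only median with all 3 subunits was instead 187 bp above that with none. With all 3 subunits the median was 1223.5 bp in both-mark regions, slightly above that with none, and 1545 bp in H3K4me3-only regions, below it. From the narrowest to the widest width quintile of the H3K4me1-only regions, MED1 listing went from 22.8% to 12.4%, MED12 from 21.3% to 7.50% and SUR2 from 21.9% to 12.7%. H3K27ac went the other way, from 36.1% to 63.3%, and the mean number of the 14 other factors went from 3.29 to 1.92. Wide H3K4me1-only regions thus carried more H3K27ac and less listed Mediator. In both-mark regions MED1 was highest in the next-to-widest quintile, at 62.7%, and MED12 was 40.2% to 41.6% in the 4 narrower quintiles and 28.3% in the widest. How the authors averaged enrichment over a region is not stated, so a narrow peak diluted over a wide region cannot be told apart from a lower occupancy.

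Regions with many factors also had Mediator. The 14 other factors measured in these cells are SMC3, the remodeller subunits BRG1 and BAF155, the ISWI ATPase SNF2H with its partners BAZ1A and WSTF, the ATPases RUVBL1 and RUVBL2, the histone chaperone subunit SSRP1, the PHD-finger proteins PHRF1 and PHF5A, the splicing factors SRSF1 and SRSF2, and the corepressor-associated protein SAP18. Where none of the 14 was listed, MED1 was listed at 3.49% of 9900 regions, MED12 at 3.98% and SUR2 at 2.43%. Where all 14 were listed, which held at 78 regions, MED1 was listed at 89.7%, MED12 at 76.9% and SUR2 at 93.6%. MED12 was the most frequent subunit at these barest regions and the least frequent at every number of other factors from 3 upwards. All 3 subunits were listed together at 0.0505% of regions with no other factor and 67.9% of regions with all 14.

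**Figure D2:**
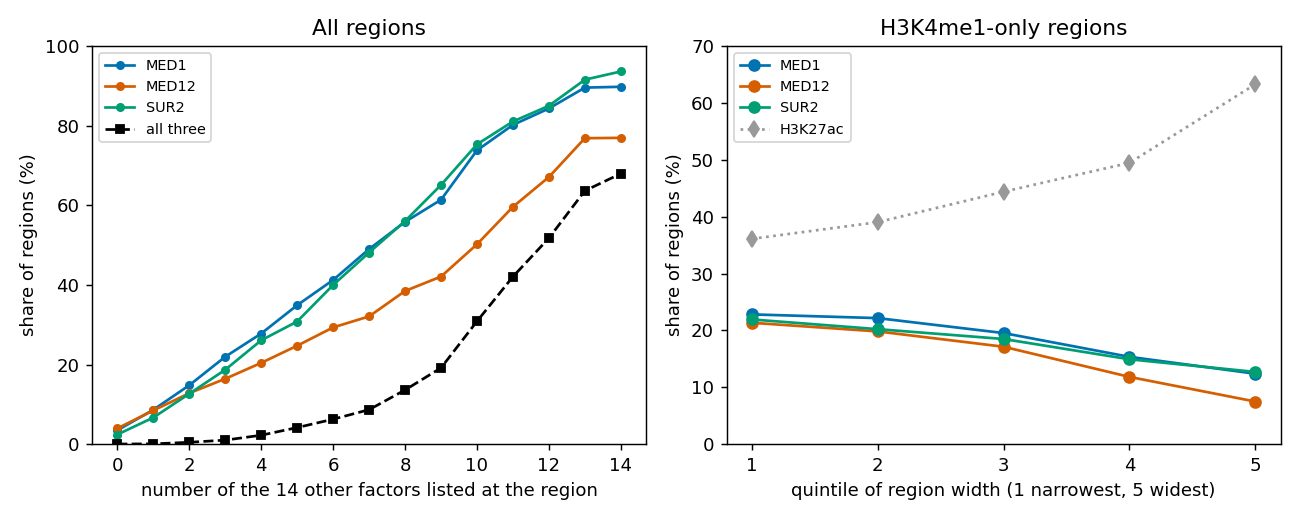
The left panel plots the share of regions (percent) with MED1, MED12, SUR2 or all 3 listed against the number of the 14 other factors listed there. The right panel plots the share of H3K4me1-only regions with each subunit and with H3K27ac against the quintile of region width; MED12 goes from 21.3% to 7.50% and H3K27ac from 36.1% to 63.3%.

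Every one of the 14 factors was listed more often at regions with all 3 subunits than at regions with none, and the size of the difference varied widely. It was largest for SAP18, listed at 42.1% of all regions, with 86.7% against 19.9%. RUVBL2, an ATPase of the INO80 and TIP60 complexes, was listed at 38.5% of all regions, with 83.9% against 17.3%. SNF2H, listed at 39.8% of all regions, had 83.7% against 18%. WSTF, BRG1 and PHF5A differed least. WSTF, an ISWI partner listed at 9.47% of all regions, had 11.3% against 7.96%. BRG1, the ATPase of the BAF remodeller, was listed at 18.7% of all regions and had 43.7% against 8.69%. PHF5A, listed at 19.8% of all regions, had 47.2% against 9.70%. WSTF thus barely followed Mediator, at a difference of 3.30 points, which lay between 0.15 and 9.90 points on the 19 autosomes. On chromosome X the WSTF difference was -1.34 points.

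Because crowded regions hold more of every factor, partner shares were also compared at a matched number of the other factors, and there the subunits parted. Each subunit was added to the 4 combinations of the other two (none, either one, both), and the shares with and without it were set side by side at that matched number. SSRP1, a subunit of the FACT chaperone that handles nucleosomes during transcription, went with SUR2. It was listed at 34.0% of all regions. After matching it was listed at 53.6% to 59.7% in the 4 combinations with SUR2 and at 37.8% to 40.9% in the 4 without, so the 2 ranges did not overlap. Adding SUR2 gave a mean difference of 17.2 points, adding MED1 gave 4.30 points and adding MED12 gave 0.24 points.

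PHRF1, a PHD-finger and RING-finger protein, showed the same pattern and was listed at 36.6% of all regions. After matching its share was 54.9% to 64.7% with SUR2 and 41.3% to 48.8% without, and adding SUR2 gave a mean of 14.2 points. For both SSRP1 and PHRF1 the ranges with and without SUR2 were also apart within H3K4me1-only, both-mark and H3K4me3-only regions taken separately. SSRP1 was listed at 20.5% of all H3K4me1-only, 64.9% of both-mark and 33.9% of H3K4me3-only regions, and the SUR2 difference there was 12.8, 14.5 and 21.5 points. PHRF1 was listed at 23.0%, 66.9% and 37.9% of these classes, and its SUR2 differences were 10.8, 10.96 and 20.7 points. Without matching, SSRP1 was listed more often with SUR2 alone than with MED1 alone on all 19 autosomes, by 8.20 to 21.2 points, and PHRF1 on 18 of 19. SSRP1 rests on 1 library.

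MED12 went with a different set of partners. Of MED1, MED12 and SUR2, adding MED12 gave the largest mean difference for BRG1, BAZ1A, PHF5A and SMC3. BAZ1A, the ISWI partner also called ACF1, was listed at 22.8% of all regions. After matching it was listed at 35.7% to 42.3% in combinations with MED12 and at 28.2% to 33.4% in those without. PHF5A, which also belongs to the SF3b splicing complex, was listed at 29.0% to 37.5% with MED12 and at 22.8% to 27.4% without. BRG1 was listed at 28.5% to 33.9% with MED12 and at 22.5% to 26.5% without. Within both-mark regions, of which 30.0% had BRG1, the ranges with and without MED12 were apart for BRG1, 37.2% to 39.6% against 27.97% to 30.3%. Within H3K4me1-only regions they overlapped for BRG1, BAZ1A and PHF5A. Adding MED12 gave 4.77, 6.62 and 5.25 points for these partners there, against 4.32, 6.54 and 5.05 points for SUR2. Within H3K4me3-only regions the ranges overlapped for PHF5A. Not every partner could be matched within both-mark and H3K4me3-only regions, where for BAZ1A no matched value was obtained. For SMC3 the 3 subunits gave similar differences, 5.56 points for MED12, 4.46 for SUR2 and 4.16 for MED1. Adding MED12 left SSRP1, SRSF2 and H3K27ac nearly where they were, with mean differences of 0.24, 0.75 and -0.03 points.

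Over all regions MED1 gave the largest difference for 6 partners: BAF155, SNF2H, RUVBL2, SAP18, RUVBL1 and WSTF. Within H3K4me1-only regions SUR2 gave more than MED1 for SAP18, 7.35 against 5.87 points, and MED12 gave more for RUVBL1, 6.45 against 5.34 points. BAF155, a scaffold subunit of the BAF remodeller, was listed at 26.1% of all regions, and adding MED1 gave 10.9 points against 7.19 for SUR2 and 3.04 for MED12. The values for SNF2H were 10.5 points for MED1, 8.99 for SUR2 and 4.02 for MED12. For RUVBL2 they were 9.71, 4.54 and 4.25 points, and for RUVBL1, listed at 31.3% of all regions, 7.62, 5.96 and 5.41 points. BAF155 and BRG1, though subunits of 1 complex, thus differed in the subunit that gave the largest difference. Only RUVBL2 and WSTF had ranges with and without MED1 that were apart over all regions, 55.4% to 63.5% against 45.6% to 55.03% for RUVBL2 and 10.7% to 12.5% against 9.39% to 10.6% for WSTF. Within H3K4me1-only regions, of which 25.5% had SNF2H, the ranges were apart for SNF2H. They were 43.4% to 53.5% with MED1 against 30.6% to 42.4% without, all with chromosome 11 included. Within H3K4me3-only regions the ranges were apart for RUVBL1, 71.1% to 75.5% against 63.6% to 70.4%, and for SRSF2, 81.4% to 87.2% against 70.99% to 80.3%. RUVBL1 was listed at 61.0% and SRSF2 at 71.4% of all H3K4me3-only regions.

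**Figure D3:**
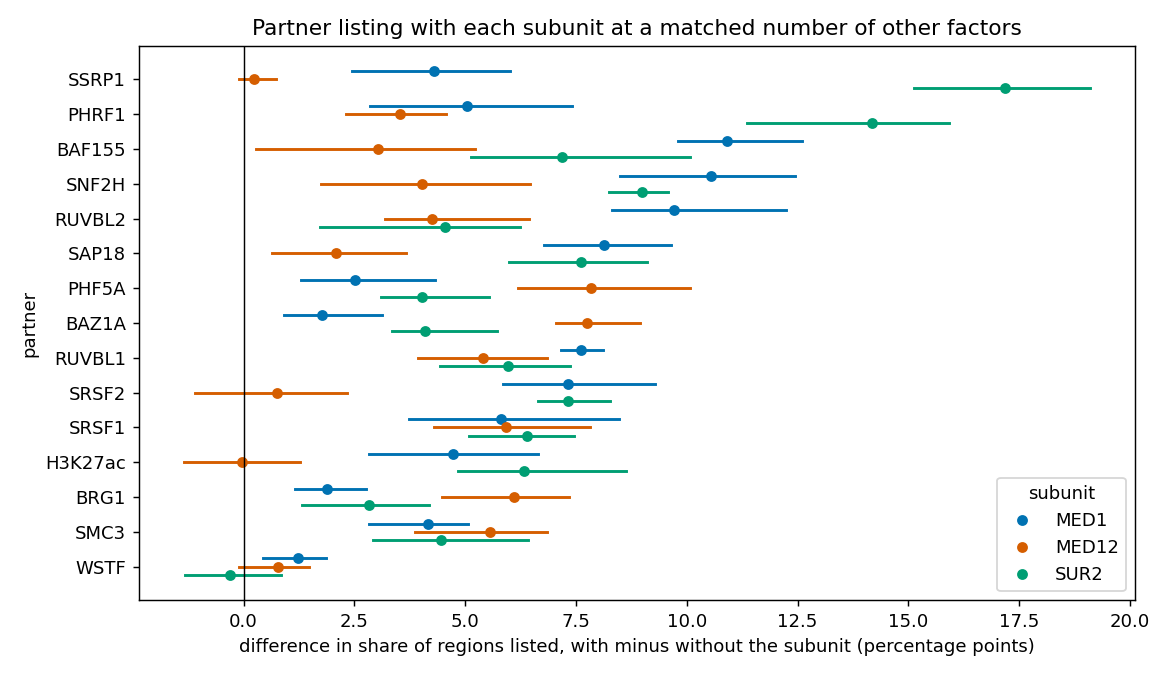
For each partner (rows) the points give the mean difference, in percentage points, in the share of regions with that partner listed when MED1, MED12 or SUR2 is added to each of the 4 combinations of the other subunits, at a matched number of other factors. Lines span the lowest and highest of the 4 differences; SUR2 stands apart for SSRP1 (17.2 points) and PHRF1 (14.2 points), while WSTF lies near 0 for all 3 subunits.

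After matching, the H3K27ac share was 77.8% to 84.4% in the combinations with SUR2 and 72.5% to 77.2% in those without. Adding SUR2 gave 6.32 points, adding MED1 4.74 points and adding MED12 -0.03 points. The difference between all 3 subunits and none was 48.6 points before matching and 11.9 points after it. For SMC3 it went from 50.9 to 14.4 points, and for the mean of the other 13 factors from 52.6 to 16.8 points. All of these differences were thus smaller at a matched number of factors and were still above 0. SUR2 and MED1 gave almost the same difference for SRSF2, a splicing factor listed at 54.0% of all regions, 7.33 and 7.31 points. Without chromosome 11 these differences were 7.71 and 5.77 points.

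The subunits' own enrichment was higher where they were listed together. The median log2 enrichment of MED1 was 0.86 at its 7056 single-subunit regions and 0.995 at the regions with all 3 subunits. For MED12 these medians were 0.85 and 0.93, and for SUR2 0.90 and 1.07. A log2 enrichment of 1 or more was reached by MED1 at 23.9% of the regions where it was alone and at 49.0% of those with all 3, and by SUR2 at 32.5% and 61.8%. Many single-subunit values therefore lay near the listing limit: 14% of MED1-alone, 15.2% of MED12-alone and 9.60% of SUR2-alone values were below a log2 of 0.7, against 3.30%, 6.57% and 1.46% with all 3. Across the 5817 regions with all 3 subunits, Spearman's rho was 0.40 between MED1 and MED12, 0.38 between MED1 and SUR2 and 0.35 between MED12 and SUR2. The regions and the input libraries are shared, so these values are a description. The mean level of the 3 subunits had a rho of -0.46 with width, 0.13 with H3K27ac (5427 regions) and 0.55 with RUVBL1 (4476 regions), the highest among the 14 factors.

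The 5 regions with the highest Mediator enrichment were narrow. In mm9 coordinates, the highest mean over all 3 subunits was at chr2:181747431-181747730, a 300 bp H3K4me3-only region with log2 values of 2.29 for MED1, 2.72 for MED12 and 2.65 for SUR2. The next was chr1:4239814-4239994, 181 bp and H3K4me3-only, with 2.43, 2.52 and 1.97. After it came chr14:7259482-7259752, 271 bp and H3K4me3-only, with 1.86, 1.85 and 2.56. Next came chr1:172995933-172996138, a 206 bp both-mark region with 2.04, 2.05 and 2.15, and then chr13:13953057-13953390, 334 bp and H3K4me3-only, with 1.99, 2.12 and 2.108. H3K27ac was listed at none of these 5 regions. The regions on chromosomes 2, 14 and 13 listed the same 5 other factors, SNF2H, PHRF1, PHF5A, SRSF1 and SRSF2, whereas the both-mark region listed 13 of the 14. High values were not particular to Mediator at the 2 highest regions. These 5 factors had log2 values of 2.34 to 2.72 at the chromosome 2 region, and PHF5A had 3.18 at chr1:4239814-4239994.

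Among the 50 regions with the highest mean over all 3 subunits, a number chosen after the values were seen, the median width was 234 bp against 1150 bp for all 5817. H3K27ac was listed at 35 of these 50, against 93.3% of all 5817 and 62.6% of all regions. Of the 50, 2 were H3K4me1-only, 27 were both-mark and 21 were H3K4me3-only, and 45 (90%) were narrower than 400 bp. Of all 5817, 873 were H3K4me1-only, 3776 were both-mark and 1168 were H3K4me3-only, and 1264 (21.7%) were narrower than 400 bp. The mean level was lower at wider regions, as given above, so narrow regions are favoured by this ranking. No gene is named for these regions, since no annotation of mm9 was used here.

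The highest regions of the other combinations differed in company as well as in level. MED1 alone was highest at chr14:13170948-13171162, a 215 bp H3K4me1-only region with a log2 of 2.22, 6 other factors and no H3K27ac listed. MED12 alone was highest at chr15:94642105-94642313, a 209 bp both-mark region with a log2 of 2.18 and 6 other factors. SUR2 alone was highest at chr13:16192343-16192549, a 207 bp both-mark region with a log2 of 2.42 and 13 other factors, SMC3 at 2.20 among them. For MED1 with MED12 it was chr15:51957157-51957338, a 182 bp both-mark region with 2.71 and 2.999. For MED1 with SUR2 it was chr13:23775614-23775833, a 220 bp H3K4me3-only region with 1.68 and 2.42 and an H3K27ac log2 of 3.26. For MED12 with SUR2 it was chr9:8017673-8017860, a 188 bp both-mark region with 1.69 and 2.31. All of these were 220 bp wide or narrower, and 4 of the 6 were both-mark.

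At H3K4me1-only regions Mediator was also found without H3K27ac. The authors also deposited an active and a poised enhancer list, both drawn from the H3K4me1-only regions. All 12492 active regions have an H3K27ac log2 of 1 or more, and the 19567 poised regions lie below that or have none listed. No subunit was listed at the 9760 H3K4me1-only regions left off the lists, so every H3K4me1-only region with a subunit is on 1 of them. How the lists were drawn is not given in the sources used here. At least 1 subunit was listed at 59.8% of active (58.9% to 60.6%) and 42.5% of poised regions (41.8% to 43.2%). Both shares are raised by the regions left off, since over all H3K4me1-only regions the share was 37.7%. H3K27ac was listed at only 2203 of the 9760 regions left off, so the poised share is raised more. The gap between the lists therefore depends on how they were drawn, which the intervals do not cover. For MED1 the shares were 31.7% in the active and 19.2% in the poised list, for MED12 24.1% and 17.8%, and for SUR2 32.1% and 17.3%. SUR2 had the widest gap and MED12 the narrowest. All 3 subunits together made up 4.86% of the active and 1.36% of the poised list.

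Read the other way, 29.9% of all H3K4me1-only regions were on the active list. The share was 35.4% with MED12 alone, 43.1% with MED1 alone, 47.2% with SUR2 alone and 69.5% with all 3 (66.4% to 72.5%). Regions with no subunit can be off both lists, so their list share is not comparable. An H3K27ac log2 of 1 or more was reached at 24.4% of them. H3K27ac was not listed at 178 of the 873 H3K4me1-only regions with all 3 subunits. These 178 regions carried 5.99 of the 14 other factors on average, against 6.94 at the 695 with H3K27ac and 2.62 at the 9664 regions with H3K27ac and no subunit. SMC3 was listed at 45.5% of the 178 and at 24.2% of those 9664. The company of other factors thus went with the number of subunits more than with H3K27ac in these groups.

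Mediator regions of the H3K4me1-only and both-mark classes had Mediator neighbours slightly more often than regions with no subunit. Another Mediator region lay within 10000 bp, centre to centre, of 53.4% of all H3K4me1-only regions. The share was 50.3% with no subunit (49.7% to 51.0%), 54.4% with MED12 alone, 57.6% with MED1 alone, 59.3% with SUR2 alone and 63.6% with all 3 (60.3% to 66.7%). The mean number of regions of any kind nearby was similar, 1.77 with no subunit and 1.79 with all 3. At both-mark regions the share was 51.0% with no subunit (49.3% to 52.7%) and 56.4% with all 3 (54.8% to 58.0%). It was highest with MED1 and SUR2 there, 62.0% (60.4% to 63.6%). At H3K4me3-only regions, of which 33.5% had such a neighbour, the share was 33.5% with no subunit and 31.8% with all 3, and the intervals overlapped. Without chromosome 11 the both-mark share was 50.5% with no subunit (48.8% to 52.2%) and 53.8% with all 3 (52.0% to 55.5%). These 2 intervals overlapped. The H3K4me1-only share was then 49.4% with no subunit (48.8% to 50.1%) and 59.3% with all 3 (55.7% to 62.9%).

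Chromosome 11 stood apart for MED1. MED1 was listed at 60.1% of the 5440 regions of chromosome 11 and at 25.3% to 35.7% of those of the other 18 autosomes (median 28.9%). Its median log2 was 0.99 there against 0.88 to 0.93 elsewhere. The excess was present in each class: 43.0% against 12.9% to 19.98% at H3K4me1-only regions, 81.4% against 49.3% to 58.3% at both-mark regions, and 81.2% against 42.4% to 57.5% at H3K4me3-only regions. SUR2 was listed at 42.2% against 25.5% to 35.3% elsewhere, and MED12 at 29.2% against 19.98% to 25.7%. At H3K4me3-only regions SUR2 was lower on chromosome 11, 30.9% against 33.3% to 49.0%. MED1 thus had by far the largest excess of the 3 subunits.

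Other factors shared the chromosome 11 excess to different degrees. SNF2H was listed at 68.6% there against 32.1% to 41.6% on the other autosomes, SRSF2 at 78.0% against 46.0% to 57.2%, and BAF155 at 37.6% against 20.9% to 30.8%. SMC3 (37.1%), BRG1 (17.8%), BAZ1A (21.5%) and H3K27ac (68.9%) lay within the range of the other autosomes. In all, 12 of the 17 factors were above every other autosome in the share listed. H3K4me1-only regions made up 55.4% of the chromosome against 56.8% to 67.4% elsewhere. Chromosome 11 held 8.04% of all regions but 15.6% of the MED1-alone regions, 16.8% of those with MED1 and SUR2, 12.8% of those with all 3 subunits and 4.31% of those with none.

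**Figure D4:**
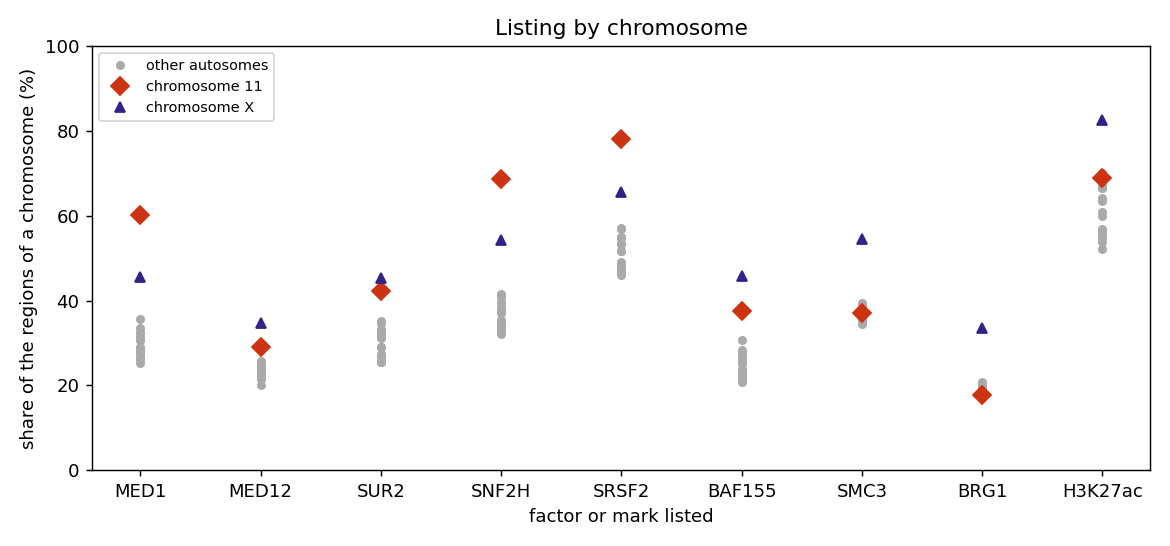
Each grey point is the share (percent) of the regions of 1 of 18 autosomes at which the factor or mark on the x axis is listed; diamonds mark chromosome 11 and triangles chromosome X. MED1 (60.1%), SNF2H (68.6%) and SRSF2 (78.0%) stand far above the other autosomes on chromosome 11, while SMC3 and BRG1 do not.

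Without chromosome 11 the class, H3K27ac and partner results over all regions had the same direction, with 1 exception. The matched H3K27ac difference on adding MED12 was -0.03 points with chromosome 11 and 0.66 points without it, both near 0. Matched shares within a single H3K4 class were not obtained without chromosome 11, so whether those ranges stay apart was not tested. MED1 was then listed at 30.1% of 62257 regions, MED12 at 23.6% and SUR2 at 30.4%. Regions with all 3 subunits numbered 5073, of which 14.2% were H3K4me1-only, 93.6% had H3K27ac and 74.3% had SMC3. The matched difference for SSRP1 on adding SUR2 was 16.1 points and that for PHRF1 was 13.1 points. The matched ranges with and without SUR2 were again apart for SSRP1, at 53.3% to 59.3% and 38.2% to 41.9%, and for PHRF1, at 54.5% to 64.2% and 41.3% to 49.8%. Those with and without MED12 were apart for BAZ1A, and by small margins for PHF5A, 28.5% against 28.3% at their nearest ends, and for BRG1, 28.45% against 28.40%. Among the changes was SNF2H, for which MED1 gave 8.23 points and SUR2 8.67, so that MED1 no longer gave the largest difference. For SRSF2, MED1 and SUR2 were no longer level, at 5.77 and 7.71 points. Its ranges with and without SUR2 were then apart by a small margin, 67.9% against 67.6% at their nearest ends. For SRSF1, by contrast, MED1 gave the largest difference without chromosome 11, 6.65 points against 6.48 for SUR2, whereas SUR2 gave the largest with it.

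The R1 cells show how H3K4 methylation differed at Mediator regions when MLL3 and MLL4, the main methyltransferases for H3K4me1 at enhancers, were catalytically dead. Of 82053 H3K4me1 peaks of R1 cells, 57081 overlapped a 129/Ola region by at least 1 bp, and the 52274 that overlapped exactly 1 region were used. For H3K4me2 these numbers were 53501, 40649 and 37968. Mediator was measured in 129/Ola cells and methylation in R1 cells, each peak has 1 fold enrichment per line, and Mediator itself was not measured in the catalytic-dead cells in the tables used. The values were put back in step with the peak positions before use, as described under the processing.

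At H3K4me1-only regions H3K4me1 was lower in catalytic-dead cells by about the same factor with and without Mediator. With values as log2 of catalytic-dead enrichment divided by wild-type enrichment, the median was -0.83 at 8986 peaks on Mediator regions and -0.82 at 16446 peaks on regions with no subunit, a difference of -0.01 (interval -0.04 to 0.02). At least 2-fold lower enrichment was found at 42.4% of the former and 42.1% of the latter, against 42.2% of all peaks on H3K4me1-only regions and 28.4% of all peaks. On regions with all 3 subunits the median was -0.96 (-1.08 to -0.80, 465 peaks), and 49.2% were at least 2-fold lower (44.7% to 53.8%). The interval of that median overlapped that of regions with no subunit, -0.83 to -0.80, whereas the interval of the share did not overlap theirs, 41.3% to 42.8%. The wild-type medians were nearly equal, a fold enrichment of 3.15 with all 3 subunits and 3.18 with none.

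H3K4me2 at H3K4me1-only regions was also lower in catalytic-dead cells, by a smaller factor where Mediator was listed. The median log2 ratio was -0.85 at 5203 peaks on Mediator regions and -0.98 at 10371 peaks on regions with no subunit, a difference of 0.13 (interval 0.08 to 0.17). This difference was 0.0831 for peaks overlapped by 50% or more and 0.0771 for peaks whose average over both lines exceeded the 25th percentile. At least 2-fold lower H3K4me2 was found at 43.8% and 49.2% of these peaks, against 47.4% of all peaks on H3K4me1-only regions and 23.0% of all H3K4me2 peaks. With SUR2 alone the median was -0.78 (-0.84 to -0.71), with MED1 alone -0.88 (-0.92 to -0.83) and with MED12 alone -0.93 (-1.01 to -0.84). The SUR2-alone and MED1-alone intervals did not overlap that of regions with no subunit, -1.01 to -0.95. The intervals for MED12 alone, for MED1 with MED12 (-1.02 to -0.78) and for all 3 subunits (-0.98 to -0.65) did. With a single value per line, whether such differences exceed the spread between libraries was not tested.

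At both-mark regions H3K4me1 enrichment was higher in catalytic-dead cells, most of all with all 3 subunits. What the fold enrichment is relative to is not given, so whether the amount of the mark rose was not tested. The median log2 ratio of H3K4me1 was 0.57 with no subunit (0.54 to 0.59, 3447 peaks) and 0.79 with all 3 (0.77 to 0.81, 3696 peaks). With MED1 alone, MED12 alone and SUR2 alone it was 0.55, 0.49 and 0.47, so single subunits lay at or below regions with none. At least 2-fold higher H3K4me1 was found at 31.5% of peaks on regions with all 3 subunits and 21.0% with none, against 23.2% of all peaks on both-mark regions and 15.2% of all peaks. The H3K4me2 medians there were 0.20 with all 3 subunits and 0.07 with none. At H3K4me3-only regions the H3K4me1 median was 1.05 to 1.10 in all combinations, so it differed little with the subunits listed.

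**Figure D5:**
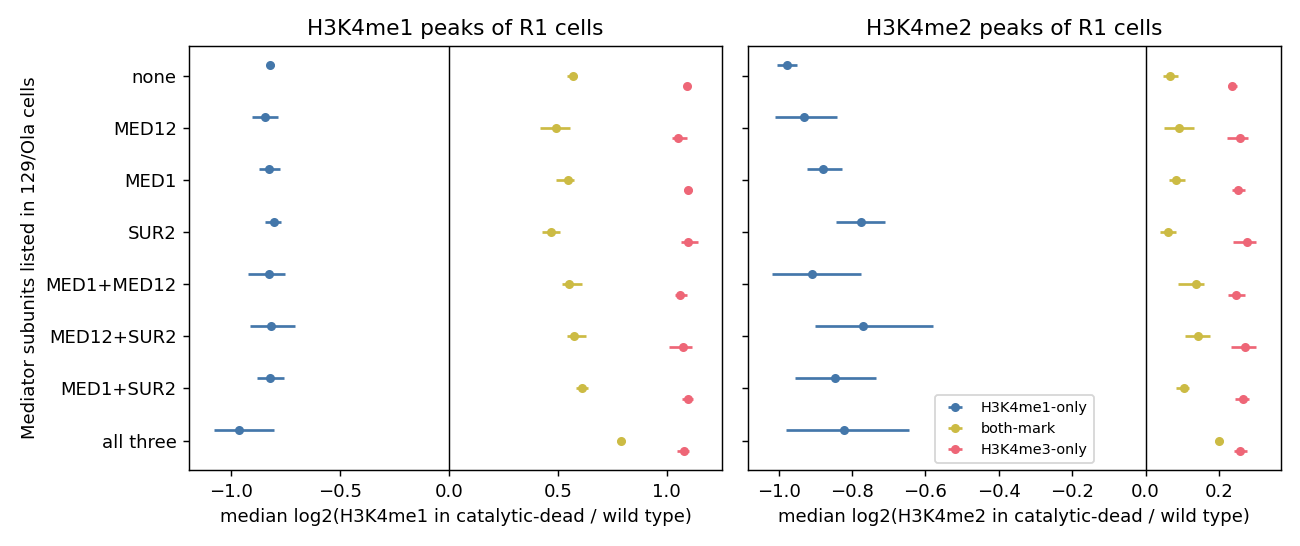
Points give, as a log2 ratio, the median of the fold enrichment in catalytic-dead R1 cells divided by that in wild type for H3K4me1 peaks (left) and H3K4me2 peaks (right), by the Mediator subunits listed at the overlapped 129/Ola region (rows) and its H3K4 class (colours), with 95% intervals of the median over peaks. H3K4me1-only regions lie between -0.96 and -0.80 for H3K4me1 with and without Mediator, and both-mark regions are highest with all 3 subunits, at 0.79.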

How the data were processed

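The 129/Ola regions are described by 1 log2 enrichment per factor, deposited by the authors, with none below a fold of 1.5. Per the submitters' processing notes the build was mm9 and the tools were Bowtie, Picard and MACS2, versions not given. The R1 peak tables hold fold enrichments (a ratio), per the file headers marked FE, for which the notes name deepTools 2.5.1 and 2.5.3, MACS2 2.1.0.20150731, BWA 0.7.13-r1126 and Picard 2.11.0. What enrichment is relative to, and whether replicates were pooled, is not given in the sources used here.

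Samples were grouped by title and antibody. Of 31 names in the region table, 11 matched no 129/Ola library in the labels and were not used. Region starts were read as counting from 0. The members and lists were chosen with earlier results of these data known. Regions named are the highest by mean log2 of the subunits listed, 1 per combination and 5 for all 3 subunits. Partners named are the 3 with the largest and 3 with the smallest difference between all 3 subunits and none, and those whose ranges or largest difference part the subunits, chosen after their values were seen. Matched shares weight each number of other factors as in the Mediator regions, or in those of the class concerned (12 and above merged). The R1 score columns follow number order of chromosomes while positions follow text order. Put back, the mean rho of peak width with wild-type enrichment on chromosomes 2 to 19 was 0.253 for H3K4me1 and 0.675 for H3K4me2, against 0.00253 and 0.00546 as deposited. Depth is unknown in both tables. The code was checked on simulated data with Python 3.11.15, numpy 2.4.6, pandas 2.3.3 and scipy 1.17.1. The alternatives are in the closing section.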

Additional observations from a re-analysis of the deposited data

How the results depend on the processing

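Of 49 alternative values, 15 stayed within the margin set for them and 34 moved further. With a subunit counted only at a log2 of 1 or more, MED1, MED12 and SUR2 were present at 7714, 5332 and 9701 regions, any subunit at 16308 and all 3 at 1212, of which 13.3% were H3K4me1-only. The differences between all 3 subunits and none were then 36.1 points for H3K27ac, 46.5 for SMC3, 50.2 for the mean of the other 13 factors and -396 bp for H3K4me1-only width (main value -343), and active minus poised regions was 9.66 points (main value 17.3). Standardised to width deciles, the H3K4me1-only share of regions with all 3 subunits was 19.7% and the differences were 46.5, 47.9 and 50.7 points for H3K27ac, SMC3 and the other factors. Within H3K4me1-only, both-mark and H3K4me3-only regions they were 42.5, 16.3 and 14.8 points for H3K27ac, 29.1, 38.4 and 45.5 for SMC3, and 35.9, 39.2 and 42.9 for the other factors. At a matched number of factors they were 11.9, 14.4 and 16.8 points. With H3K27ac or SMC3 itself at a log2 of 1 or more they were 51.6 and 35.9 points. Without chromosome 11 the SMC3 difference was 52.4 points. In R1 cells the H3K4me1 difference at H3K4me1-only regions (main value -0.01, interval including 0) was above 0 for peaks overlapped by 50% or more, 0.0126, and in the deposited layout, 0.0220, and the H3K4me2 difference was 0.0203 in that layout, 0.0831 for peaks overlapped by 50% or more and 0.0771 for peaks with a mean above the 25th percentile (main value 0.13). The deposited layout pairs peaks with values of other peaks, so it is no independent check. The cause of the other moves was not tested. Width standardisation of the counts gives the counts themselves and was not run. No paired analysis was possible because the tables give 1 value per factor or line, and for the same reason no replicate could be left out.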
